A study of Mus musculus with 18 samples.

Results

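Livers of mice with streptozotocin (STZ) diabetes that had received a transplant of gut content were compared with livers of STZ mice that had received none. The members were 12 of the 18 liver libraries of the series, chosen by the treatment in their labels: 6 from transplanted mice and 6 from untransplanted mice. The expression of 10698 of the 19057 genes in the table was tested, which were the genes at 1 RPKM or more in 3 or more of the 12 libraries. RPKM is the read number of a gene scaled to its length and to the total reads of its library.

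All 12 livers came from ICR mice, an outbred strain, at 10 weeks of age, and all 12 mice had received STZ. The methods give male mice and 1 injected dose for the STZ, A10-FMT and Con-FMT groups. In the transplanted arm, the A10-FMT group (3 mice) received small intestine content from donors given alginate oligosaccharide (AOS) at 10 mg/kg, and the Con-FMT group (3 mice) received it from control donors. The content of each donor group was pooled, so the 3 mice of a group shared 1 inoculum, which was dosed by mouth once daily in an initial period. In the untransplanted arm, the STZ group (3 mice) had STZ alone, and the STZ+AOS group (3 mice) had STZ and AOS at 10 mg/kg. The STZ+AOS group is described only by its labels, which give neither sex nor number of doses. The paper reports that blood glucose at the end was lower in A10-FMT and Con-FMT than in STZ. It gives no glucose for STZ+AOS. The part of blood glucose in the results was not tested. The methods name no sham inoculation of the untransplanted mice, so an effect of the inoculum and of the dosing itself cannot be told apart. The Con and AOS groups (3 mice each, no STZ) were used only as a reference level. The labels number 3 samples in each group, taken here as 3 mice, and do not say whether they were prepared separately, so the p-values measure only the spread between these samples, which may be technical.

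STZ destroys the insulin-producing beta cells of the pancreas, and the liver is then exposed to too little insulin and too much glucagon, glucocorticoid and fatty acid. Insulin restrains hepatic genes such as Igfbp1 and promotes the growth hormone receptor, IGF-I and the enzymes of fatty acid synthesis. The liver also meets the products of gut bacteria first, through the portal vein. A transplant of gut content changes what the intestine holds, and the comparison asks how the liver transcriptome of diabetic mice with a transplant differed from that without one.

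The libraries did not all lie with their own arm. On the first principal component of the 12 libraries, which carried 47.6% of the variance, the transplanted livers lay between 5.22 and 31.5, and 5 of the 6 untransplanted livers at -16.9 or lower. STZ mouse 3 lay at 18.5, among the transplanted livers, and the library it correlated with best was Con-FMT mouse 3 (r = 0.988 across genes). The distance of a library from the mean of the 6 Con and AOS livers was 76.4 ± 13.9 (SD, n = 6) log2 units without a transplant and 49.1 ± 8.77 (SD, n = 6) with one. The difference was beyond the spread between these samples (exact permutation test, two-sided, p = 0.00866). Such a test takes the 12 libraries as independent, although the mice of each transplanted group shared an inoculum. STZ mouse 3 was at 48.6, and the other untransplanted mice were at 79.5 to 85.4. Summed RPKM also differed, at 621121 to 684659 without and 673423 to 712798 with a transplant (exact permutation test, two-sided, p = 0.00866). The file gives no read totals. The smallest steps between the values of 16 genes put the relative depth of the 18 libraries at 0.940 to 1.10. Only genes whose steps lay close together across libraries were used, so this estimate could not have shown a large difference in depth. The part of the summed RPKM and of STZ mouse 3 in the results was not tested further than by the values given beside them. Hepatocyte markers were abundant in every library, with a summed level of 42396 to 55101 RPKM in untransplanted and 43976 to 63830 RPKM in transplanted livers. Of the 8 tested, 5 were positive and 3 negative with a transplant. In the limma fit described below, 2 of the 8, Ttr and Serpina1c, were called higher, beside 2.62% of all tested genes.

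**Figure D1:**
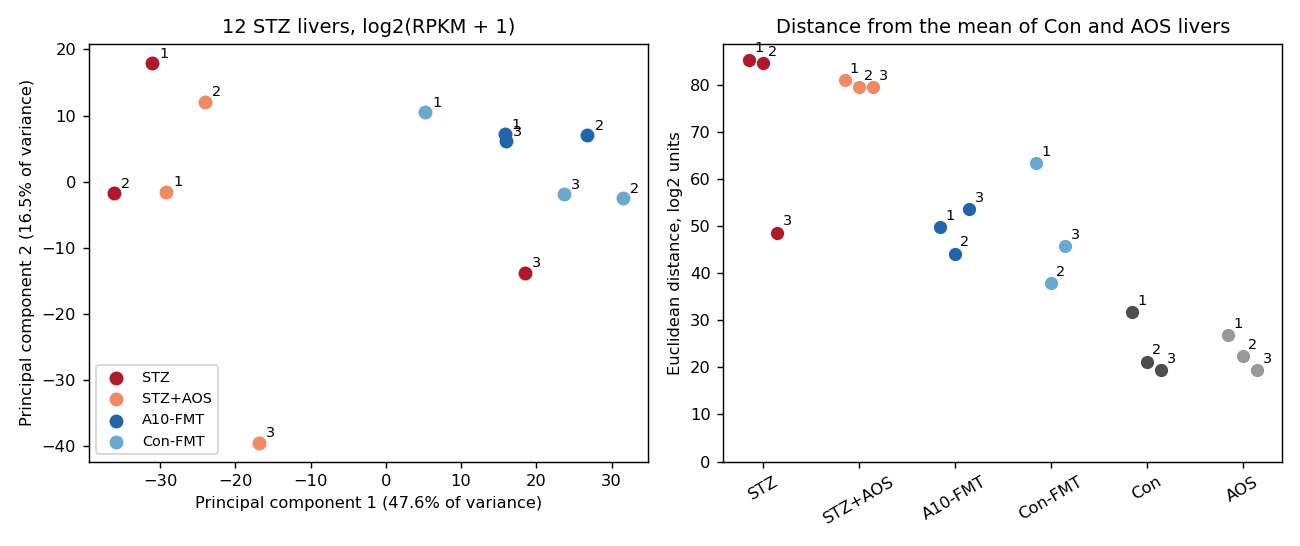
Left, the first and second principal components of the 12 STZ livers, each point 1 mouse with its number. Right, the Euclidean distance of each liver from the mean of the Con and AOS livers in log2 units. For a Con or AOS liver, that liver is left out of the mean. The transplanted livers lie at 37.8 to 63.3 and STZ mouse 3, at 48.6, lies among them.

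Livers with a transplant held less RNA of Lepr, the leptin receptor, Igfbp1, an IGF-binding protein, Acot1, an acyl-CoA thioesterase, and Nfkbia, an inhibitor of NF-kB. They held more RNA of Inhbe, an activin subunit, Igfals and Ghr, which belong to the IGF and growth hormone pathway, and Slc22a7, an organic anion transporter. In limma on log2(RPKM + 1), with Benjamini-Hochberg adjustment over all genes, 1131 genes were called at an adjusted p under 0.05, which is 10.6% of those tested, and 3365 (31.5%) had an unadjusted p under 0.05. Of these, 280 (2.62%) were higher and 851 (7.95%) were lower with a transplant. The change was 2-fold or more for 130 genes (1.22%), of which 51 (0.477%) were higher and 79 (0.738%) lower. For 670 genes (6.26%) the 6 and the 6 livers did not overlap, 158 (1.48%) higher and 512 (4.79%) lower. The median over all tested genes was -0.07 on the log2 scale. After the libraries were put on a common median ratio, 511 genes (4.78%) were higher and 537 genes (5.02%) were lower, so the excess of falling genes depends on the scaling. In bulk tissue, fewer cells of a type and less RNA per cell cannot be told apart.

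The number of called genes rested on single mice. It was 2217 without STZ mouse 3, 596 without STZ mouse 1 and 80 without STZ mouse 2. It was 169, 2 and 362 without A10-FMT mouse 1, 2 and 3, and 1 and 111 without Con-FMT mouse 2 and 3. The other 4 libraries moved it to between 830 and 1509. Of the 2217 genes called without STZ mouse 3, 597 were higher and 1620 lower, of 10698 tested. List counts without STZ mouse 3 given below are to be read beside these. Without Con-FMT mouse 2 the only called gene was Lepr, so every other gene called here lost its call in at least that fit. For the genes Inhbe and Fam25c the highest adjusted p over the 12 fits was 0.0558. Other named genes, such as Slc22a7, Igfals and Rgn, had the same value, which the adjustment tied across genes. The plot of calls with each library left out shows how far the count moved.

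**Figure D2:**
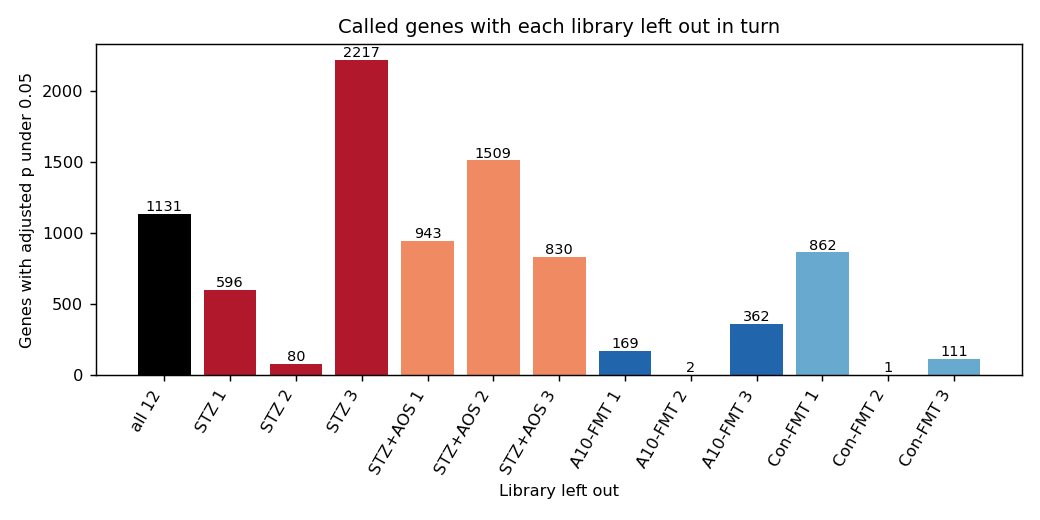
Number of genes with an adjusted p under 0.05 between transplanted and untransplanted livers in the fit of all 12 libraries (black) and with each library left out in turn, coloured by group. The count ranges from 1 without Con-FMT mouse 2 to 2217 without STZ mouse 3.

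The untransplanted arm holds livers with and without AOS, and the transplanted arm livers with content of either donor. Against STZ alone, limma called 0 genes at an adjusted p under 0.05 (0%), with 1900 genes (17.8%) at an unadjusted p under 0.05. That count was 702 without STZ mouse 3. Against STZ+AOS, limma called 729 genes (6.81%), 146 higher (1.36%) and 583 lower (5.45%), with 3196 (29.9%) at an unadjusted p under 0.05. The latter count was 1248 without STZ mouse 3, 475 without STZ mouse 1, 1195 without STZ+AOS mouse 2 and 5 without STZ+AOS mouse 1. It was 1 without Con-FMT mouse 2, and 0 without STZ+AOS mouse 3, without any 1 of the A10-FMT mice or without Con-FMT mouse 3. Both comparisons use the same transplanted livers. The difference between them is the contrast of STZ+AOS with STZ, in which limma called 0 genes (363, or 3.39%, at an unadjusted p under 0.05). A10-FMT and Con-FMT also gave 0 called genes against each other (154, or 1.44%, at an unadjusted p under 0.05), which does not show that both donors act alike.

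**Figure D3:**
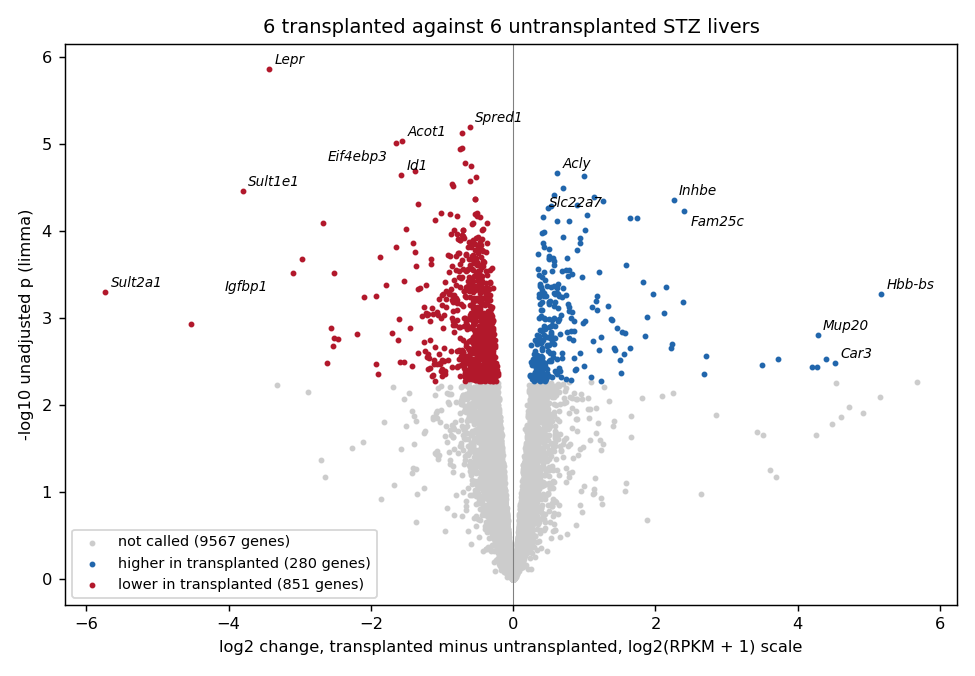
Each tested gene by its change (horizontal axis, log2 units, transplanted minus untransplanted) and by its unadjusted limma p (vertical axis, -log10). The 280 called genes higher with a transplant are blue and the 851 lower are red, with Lepr at -3.43 the gene of smallest p.

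Lepr, the leptin receptor gene (chromosome 4, 101717404 to 101815352, GRCm38), had the smallest p of all genes. In untransplanted livers it stood at 46.27, 42.10 and 21.72 RPKM in the STZ mice and at 58.63, 45.40 and 122.31 RPKM in the STZ+AOS mice. In transplanted livers it stood at 2.99, 2.44 and 4.45 RPKM in the A10-FMT mice and at 9.29, 1.14 and 5.15 RPKM in the Con-FMT mice. All 6 transplanted livers lay under all 6 untransplanted livers, STZ mouse 3 included, and above the Con livers, whose mean was 0.15 RPKM. The log2 change was -3.43 (SE 0.37, adjusted p = 0.0149 in limma). The call held in 12 of 12 fits that left out a mouse, with a highest adjusted p of 0.0498. Against STZ the change was -2.95 (adjusted p = 0.104 in limma, not called) and against STZ+AOS -3.91 (adjusted p = 0.0305 in limma). In fits without the whole STZ+AOS group or the whole A10-FMT group, 0 genes were called, so Lepr was not. Of 12 tested genes of leptin receptor and STAT3 signalling, 4 fell and 0 rose (median -0.30). This and each later list count is to be read beside 7.95% lower and 2.62% higher among all tested genes. After median-ratio scaling 3 fell, and without STZ mouse 3 there were 7 lower and 1 higher. Besides Lepr, those that fell in the main fit were Il6ra, the interleukin-6 receptor, at -0.85, Stat3 at -0.57 and Jak2 at -0.31. Stat3 is the transcription factor both receptors activate, and Jak2 the kinase bound to the leptin receptor.

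**Figure D4:**
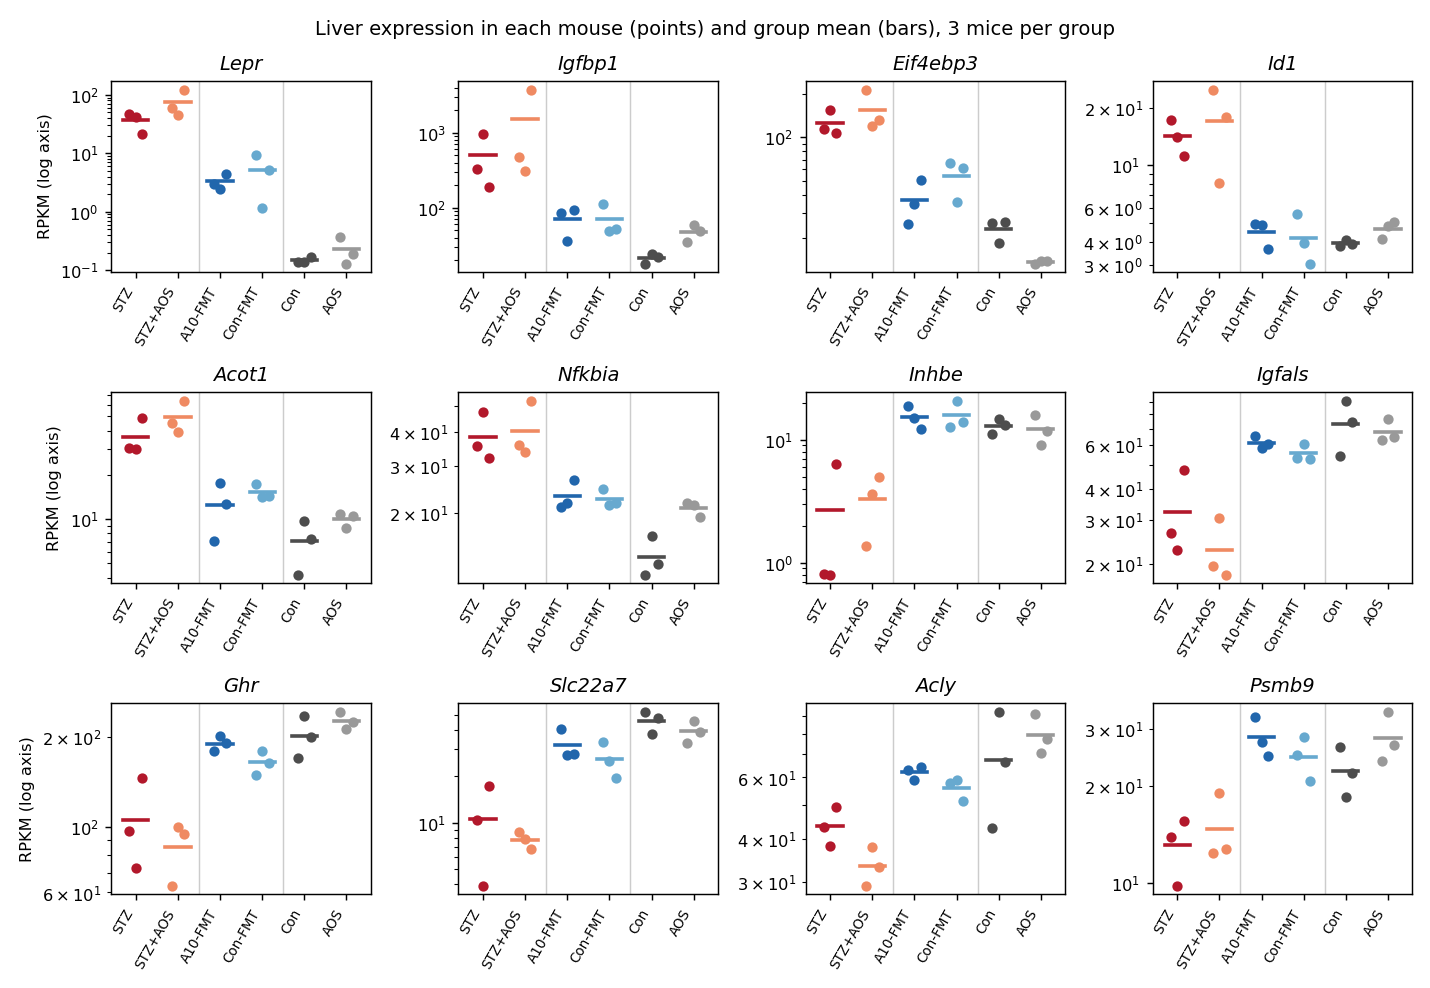
RPKM on a log axis of 12 genes in each mouse (points) with the group mean (bars), for the 4 STZ groups and, at the right of each panel, the Con and AOS groups. The 6 panels from Lepr to Nfkbia show genes lower with a transplant and the 6 from Inhbe to Psmb9 genes higher with one, and in these 12 genes no transplanted liver overlaps an untransplanted one. Several of them, such as Lepr and Inhbe, met a naming rule that itself asked for no overlap.

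Genes of insulin and growth hormone signalling moved in both directions. Of 24 tested genes, 4 rose and 6 fell (median -0.23). Igfbp1, a secreted IGF-binding protein that insulin represses, lay at 190.31 to 3757 RPKM (median 408) without and at 35.8 to 111 RPKM (median 68.5) with a transplant. Its log2 change was -3.10 (SE 0.60, adjusted p = 0.020), and STZ+AOS mouse 3 held the highest value. Eif4ebp3, a repressor of cap-dependent translation, went from 107 to 213 RPKM down to 24.9 to 66.0 RPKM (log2 change -1.64, SE 0.22, adjusted p = 0.0173). The arms did not overlap for either gene, and both met a naming rule that itself asked for no overlap. Among all tested genes, 4.79% were lower without overlap. Irs2, the insulin receptor substrate, fell by 1.19, Socs2, a feedback inhibitor of growth hormone signalling, by 1.17, Stat5b, the transcription factor of that pathway, by 0.49 and Insr, the insulin receptor, by 0.36 on the log2 scale.

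On the rising side, Ghr, the growth hormone receptor, lay at 63.2 to 146 RPKM (median 95.4) without and at 149 to 201 RPKM (median 179) with a transplant. The log2 change was 0.93 (SE 0.17, adjusted p = 0.019). Igfals, the acid-labile subunit that holds IGF-I in the circulation, lay at 18.1 to 47.6 RPKM without and at 52.96 to 65.28 RPKM with a transplant (log2 change 1.14, SE 0.18, adjusted p = 0.0184). Igf1 lay at 75.9 to 102 RPKM and at 107 to 121 RPKM (log2 change 0.33, SE 0.09, adjusted p = 0.0384). None of these 3 genes overlapped between the arms, beside 1.48% of all tested genes that were higher without overlap. Igfals met a naming rule that itself asked for no overlap, and Igf1 was named after its values were seen. Enho, which encodes the secreted peptide adropin, rose by 0.70.

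The promoters of Igfals and Akr1b7 are shown as examples of a gene that rose and a gene that fell without overlap between the arms. Each is 250 bases before and 50 after a RefSeq start (GRCm38.p6, plus strand). Capitals mark matches, on either strand, to TTCNNNGAA (a GAS element, which STAT factors bind), AGGTCA (an element of nuclear receptors) and AGAACA (an element of the glucocorticoid receptor). TTCNNNGAA occurs in 8.3%, AGGTCA in 16.3% and AGAACA in 19% of the 32851 promoters of the table. A match is a description of letters, not a site or a cause. Among other genes without overlap, the promoters of Inhbe, Fitm1, Lepr, Igfbp1 and Txnip held 0 matches to any motif searched. Others, such as those of Fam25c and Hdhd3, held matches. The Igfals stretch, at chr17:24877981-24878280, is 1 of 3 listed starts, was chosen after the matches were seen, and holds 1 GAS match and 2 AGGTCA matches. Of the other starts, the one at chr17:24877594-24877893 holds 1 match each to GAS, AGGTCA and AGAACA and the one at chr17:24878497-24878796 holds 0. The Akr1b7 stretch, at chr6:34412112-34412411, holds 1 AGGTCA and 1 AGAACA match.
Igfals: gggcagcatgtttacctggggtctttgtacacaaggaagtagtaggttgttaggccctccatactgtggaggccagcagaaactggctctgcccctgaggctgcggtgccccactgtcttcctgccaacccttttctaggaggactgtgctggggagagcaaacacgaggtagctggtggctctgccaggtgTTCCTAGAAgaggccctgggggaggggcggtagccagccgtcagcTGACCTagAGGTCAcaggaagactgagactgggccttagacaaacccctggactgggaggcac
Akr1b7: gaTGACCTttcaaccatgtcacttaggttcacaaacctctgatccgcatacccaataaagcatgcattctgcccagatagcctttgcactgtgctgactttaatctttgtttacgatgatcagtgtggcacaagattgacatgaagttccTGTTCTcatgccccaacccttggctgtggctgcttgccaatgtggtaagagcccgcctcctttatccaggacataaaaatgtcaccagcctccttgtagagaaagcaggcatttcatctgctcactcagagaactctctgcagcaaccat

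The 12 rising genes of largest change without overlap were led by Fam25c, Inhbe and Car1. Inhbe, which encodes the activin beta E subunit secreted by hepatocytes, lay at 0.80 to 6.37 RPKM (median 2.51) without and at 12.3 to 20.7 RPKM (median 14.4) with a transplant. Its log2 change was 2.26 (SE 0.35, adjusted p = 0.0184), and the Con mean was 13.1 RPKM. Inhbc, the related beta C subunit, rose by 0.75. Fam25c rose by 2.40 and Csrp3, a LIM protein of muscle, by 1.74. Slc22a7, an organic anion transporter of the hepatocyte, went from 3.90 to 17.4 RPKM up to 19.6 to 40.6 RPKM (log2 change 1.65, SE 0.27, adjusted p = 0.0184). Rgn, the calcium-binding protein regucalcin, rose by 1.00, Akr1c6, a hydroxysteroid dehydrogenase, by 1.33, and Fitm1, a protein of lipid droplet formation, by 1.11. Hdhd3, Nat8f2 and Nat8f1 rose by 1.26, 1.20 and 1.18, and the last pair share much of their sequence, so their split is uncertain.

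Beside Lepr, Igfbp1 and Eif4ebp3, the 12 falling genes of largest change without overlap included Akr1b7, Il1r1, Txnip and Id1. Akr1b7, an aldo-keto reductase of lipid aldehydes, lay at 2.22 to 28.0 RPKM without and at 0.48 to 1.66 RPKM with a transplant (log2 change -2.67, SE 0.44, adjusted p = 0.0184). Il1r1, the interleukin-1 receptor, went from 14.7 to 80.1 RPKM down to 5.59 to 11.2 RPKM (log2 change -1.88, SE 0.35, adjusted p = 0.0191). Txnip, a glucose-induced inhibitor of thioredoxin, fell by 1.78, Cxcl13, a B cell chemokine, by 2.52, Cyp3a44 by 1.90 and Slc35g1 by 1.51. The call of Cyp3a44 (adjusted p = 0.0458 in limma) was lost after median-ratio scaling and held in 2 of 12 fits that left out a mouse. STZ mouse 1 held 78.47 RPKM of it and the other untransplanted livers 3.69 to 8.34 RPKM. Id1, a target of BMP signalling, lay at 8.07 to 24.9 RPKM and at 3.07 to 5.54 RPKM (log2 change -1.58, SE 0.23, adjusted p = 0.0184). Of 21 tested BMP and Id genes, 4 fell and 0 rose (median -0.23), the other three being Bmp2 (-0.64), a ligand, and Smad4 (-0.50) and Smad5 (-0.27), which carry the signal to the nucleus. After median-ratio scaling 2 of the 21 fell and 1 rose, and without STZ mouse 3 there were 7 lower.

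Targets of PPAR alpha, the receptor that fatty acids activate, fell more often than they rose. Of 22 tested targets outside beta-oxidation, 7 fell and 1 rose (median -0.68), and both counts were the same after median-ratio scaling. Acot1, a cytosolic acyl-CoA thioesterase, lay at 29.97 to 63.82 RPKM (median 42.4) without and at 7.05 to 17.7 RPKM (median 14.2) with a transplant. Its log2 change was -1.56 (SE 0.21, adjusted p = 0.0173), and it was called in 11 of 12 fits that left out a mouse. Cyp4a14 and Cyp4a10, fatty acid omega-hydroxylases, fell by 2.52 and 1.60, Vnn1, a pantetheinase, by 1.33, Acot2 by 1.16 and Angptl4, an inhibitor of lipoprotein lipase, by 0.98. Acot1 and Acot2, like the Cyp4a genes, are close copies whose reads the counting could have split. The gene that rose, Cyp4a12a, is also a male-biased gene. Of 30 tested genes of fatty acid oxidation and ketogenesis, limma called 0 (5 at an unadjusted p under 0.05, median -0.10). Cpt1a, which admits fatty acids to mitochondria, stood at -0.12 (adjusted p = 0.721).

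Genes of fatty acid synthesis were called higher more often than lower. Of 24 tested, 6 rose and 2 fell (median 0.41). Acly, ATP citrate lyase, lay at 29.3 to 49.3 RPKM without and at 51.2 to 64.2 RPKM with a transplant (log2 change 0.62, SE 0.09, adjusted p = 0.0184). Thrsp, a lipogenic regulator, rose by 1.51, Slc25a1, the citrate carrier, by 0.55 and Elovl6, an elongase, by 0.50. Acacb, the acetyl-CoA carboxylase that restrains oxidation, fell by 0.51 and Lpin1, a phosphatidate phosphatase, by 1.43. Fasn stood at 0.57 (adjusted p = 0.054) and Scd1 at 1.14 (adjusted p = 0.226). Of 25 genes of cholesterol synthesis and uptake, 1 rose, the desaturase Sc5d at 0.84, and 23 had a positive value (median 0.50). The 1 called gene of 25 stands beside 2.62% of all tested genes, and the median was 0.28 without STZ mouse 3.

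Of 30 tested genes of glucose and glycogen metabolism, 5 fell and 0 rose (median -0.17). Ppp1r3g, a glycogen-targeting subunit of protein phosphatase, fell by 2.46, Ppargc1a, a coactivator of gluconeogenic genes, by 0.99, Ugp2, which makes UDP-glucose, by 0.56 and Slc37a4, the glucose-6-phosphate transporter, by 0.51. Pck2, the mitochondrial form of the gluconeogenic enzyme PEP carboxykinase, was low in both arms (means 1.25 and 0.64 RPKM) and fell by 0.46 (adjusted p = 0.0438 in limma), a call kept in 2 of the 12 fits that left out 1 library; it was named after its values were seen. Pck1, the cytosolic form, stood at -0.58 (adjusted p = 0.0947) and G6pc, glucose-6-phosphatase, at 0.28 (adjusted p = 0.401), and neither was called.

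Glucocorticoid response genes fell in 7 of 17 cases, with 0 rising and a median of -0.73. After median-ratio scaling 6 fell, and 10 fell without STZ mouse 3. Sgk1, a kinase, lay at 20.4 to 55.1 RPKM without and at 7.24 to 17.8 RPKM with a transplant (log2 change -1.23, SE 0.25, adjusted p = 0.0213). Fkbp5, a feedback chaperone of the receptor, fell by 1.20, Zbtb16 by 1.20, Klf9, a transcription factor, by 0.83 and Nr3c1, the receptor itself, by 0.29. Per1 (-1.11) and Mt2, a metallothionein (-1.62), are also members of the clock and the antioxidant list. Of 17 clock genes, 3 fell and 0 rose (Per1, Cry1, Rora), and 5 were lower without STZ mouse 3. Plasma corticosterone was not analysed here.

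Feedback genes of the response to bacterial products were among those that fell. Of 25 tested genes of endotoxin sensing and NF-kB feedback, 5 fell and 1 rose (median -0.27), beside 7.95% and 2.62% of all tested genes. Without STZ mouse 3 there were 9 lower and 1 higher. Nfkbia, the inhibitor of NF-kB that the pathway induces, lay at 32.0 to 52.2 RPKM without and at 21.1 to 26.7 RPKM with a transplant (log2 change -0.74, SE 0.13, adjusted p = 0.019). Cd14, the coreceptor for lipopolysaccharide, lay at 4.34 to 28.1 RPKM and at 2.49 to 3.81 RPKM (log2 change -1.53, SE 0.31, adjusted p = 0.0212). The Con livers held 17.38, 1.95 and 10.41 RPKM of Cd14 and the AOS livers 1.46, 2.18 and 1.75 RPKM. Nfkbiz, a further NF-kB inhibitor family member, fell by 0.54. Tlr5, the receptor for flagellin, had a median of 0.92 RPKM without and 1.77 RPKM with a transplant, with no overlap (log2 change 0.55, SE 0.10, adjusted p = 0.0191). Markers of Kupffer cells, the macrophages of the liver, moved beside these genes: 13 of 13 were negative, 0 were called in limma (3 at an unadjusted p under 0.05), and their summed level was 216 to 451 RPKM without and 111 to 294 RPKM with a transplant. Without STZ mouse 3, 3 of the 13 were called lower. Marco, a scavenger receptor, stood at -1.70 (adjusted p = 0.0536) and Clec4f, which defines these cells, at -0.18 (adjusted p = 0.597). The part of macrophage content in the list was not tested. Limma called 0 of 24 acute-phase genes (6 at an unadjusted p under 0.05), and Usp18 was the 1 of 36 interferon-stimulated genes that was called, at -0.54. No T, NK or B cell marker passed the expression filter.

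Immunoproteasome and class I genes were called upward in 2 of 23 cases and downward in 0. Psmb9, an inducible proteasome subunit, lay at 9.80 to 19.0 RPKM without and at 20.8 to 32.8 RPKM with a transplant (log2 change 0.90, SE 0.14, adjusted p = 0.0184). H2-Q10, a class I molecule secreted by hepatocytes that shares sequence with its family, rose by 0.69.

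In bile acid and drug handling, 4 of 21 tested bile acid synthesis genes rose and 3 fell, beside 2.62% and 7.95% of all tested genes. Cyp7b1 and Hsd3b7, enzymes of the synthesis pathways, rose by 1.65 and 0.64, and Cyp39a1, an oxysterol hydroxylase, fell by 2.10. Cyp7b1 is also on the list of male-biased genes, and STZ mouse 3 held 113.47 RPKM of it, within the range of the transplanted livers. Cyp7a1, the rate-limiting enzyme, lay at 1.91 to 75.5 RPKM and at 27.8 to 90.7 RPKM and was not called (adjusted p = 0.243). Of the transporters, Abcc4, an efflux pump of the basolateral membrane, fell by 1.38 with no overlap and Abcb11, the bile salt export pump, by 0.45. Of the 16 tested transporters, 1 rose and 2 fell, and after median-ratio scaling 1 rose and 1 fell. Without STZ mouse 3, 5 of the 16 were lower and 4 higher. Of 31 xenobiotic genes, 6 fell and 2 rose. Without STZ mouse 3, 10 of them were lower and 3 higher, beside 1620 and 597 of all 10698 genes. Ugt1a1, which conjugates bilirubin, fell by 0.87, Cyp2c39 by 1.28 and Sult1d1 by 1.25, and Aldh1a7 rose by 0.82. Of 25 antioxidant genes of the NRF2 list, 4 fell and 0 rose, among them Nqo1 (-0.87), a quinone reductase, and Txnrd1 (-0.59), thioredoxin reductase.

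Major urinary protein and other male-biased genes had the largest median of the 34 pathway lists, 3.47 on the log2 scale over 28 genes, with all 28 positive and 7 called. Mup20, a pheromone-binding urinary protein, lay at 5.17 to 389 RPKM (median 15.02) without and at 226 to 1211 RPKM (median 648) with a transplant (log2 change 4.28, SE 1.04, adjusted p = 0.0315). Mup1 stood at 5.67 (adjusted p = 0.0508), with 32146 RPKM in STZ mouse 3 against 34.4 to 5607 RPKM in the other untransplanted livers. Without STZ mouse 3, 25 of the 28 genes were called higher. The urinary protein genes are near-identical copies, so the value of a single one is uncertain.

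Several genes chosen after their values were seen had changes of over 2.5 on the log2 scale. Sult2a1, a sulfotransferase of steroids and bile acids, lay at 16.1 to 1460.5 RPKM without and at 0.08 to 48.3 RPKM with a transplant (log2 change -5.73, SE 1.19, adjusted p = 0.0217). Sult1e1, the oestrogen sulfotransferase, fell by 3.80, Cyp2a4, a female-biased steroid hydroxylase, by 2.97 and Cyp17a1, a steroidogenic enzyme, by 2.53. Car3, a carbonic anhydrase of liver and fat, rose by 4.52 and Ces3a, a carboxylesterase, went from a median of 67.6 to one of 643 RPKM (adjusted p = 0.042). In Sult2a1 the highest transplanted value, 48.26 RPKM in A10-FMT mouse 1, exceeded the 16.10 RPKM of STZ mouse 3.

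Erythroid genes rose with a transplant in 3 of 6 cases. Alas2, which starts haem synthesis in red cell precursors, lay at 2.93 to 43.4 RPKM and at 37.1 to 55.5 RPKM (log2 change 2.12, SE 0.48, adjusted p = 0.0261). Hbb-bs and Hbb-bt, beta globins, rose by 5.17 and 3.72, but Hbb-bs lay at 0.85, 220.20 and 91.85 RPKM in the Con livers and is a close copy of other globins. The summed erythroid level was 414 to 2614 RPKM without and 1854 to 9977 RPKM with a transplant. Car1, the red cell carbonic anhydrase, rose with it by 1.88. The part of blood left in the tissue was not tested.

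None of the genes Bax, Bcl2l1, Gpt, Sod1, Sod2, Sod3 and Cat was called in limma. The study measured their products in blood (alanine aminotransferase, superoxide dismutase and catalase) or, by Western blot, in spleen and liver (Bax and Bcl-xl). The paper reports that A10-FMT recovered the apoptosis status of the liver. That is a protein measure, while the values here are RNA with both donors pooled. Bax, Sod1, Sod2, Sod3 and Gpt had adjusted p-values of 0.335, 0.628, 0.819, 0.545 and 0.848, Bcl2l1 stood at -0.58 (adjusted p = 0.0765) and Cat at 0.44 (adjusted p = 0.0831). Csad, which makes taurine precursors, stood at 1.42 (adjusted p = 0.0821). Limma called 0 of 39 ribosomal protein genes (2 at an unadjusted p under 0.05), and 17 of them were lower without STZ mouse 3. It called 0 of 44 oxidative phosphorylation genes (5 at an unadjusted p under 0.05), and 5 were lower without STZ mouse 3. In the fit without that mouse, 1620 of all 10698 tested genes were lower. The plot of called genes by list sets each list beside the share called among all genes.

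**Figure D5:**
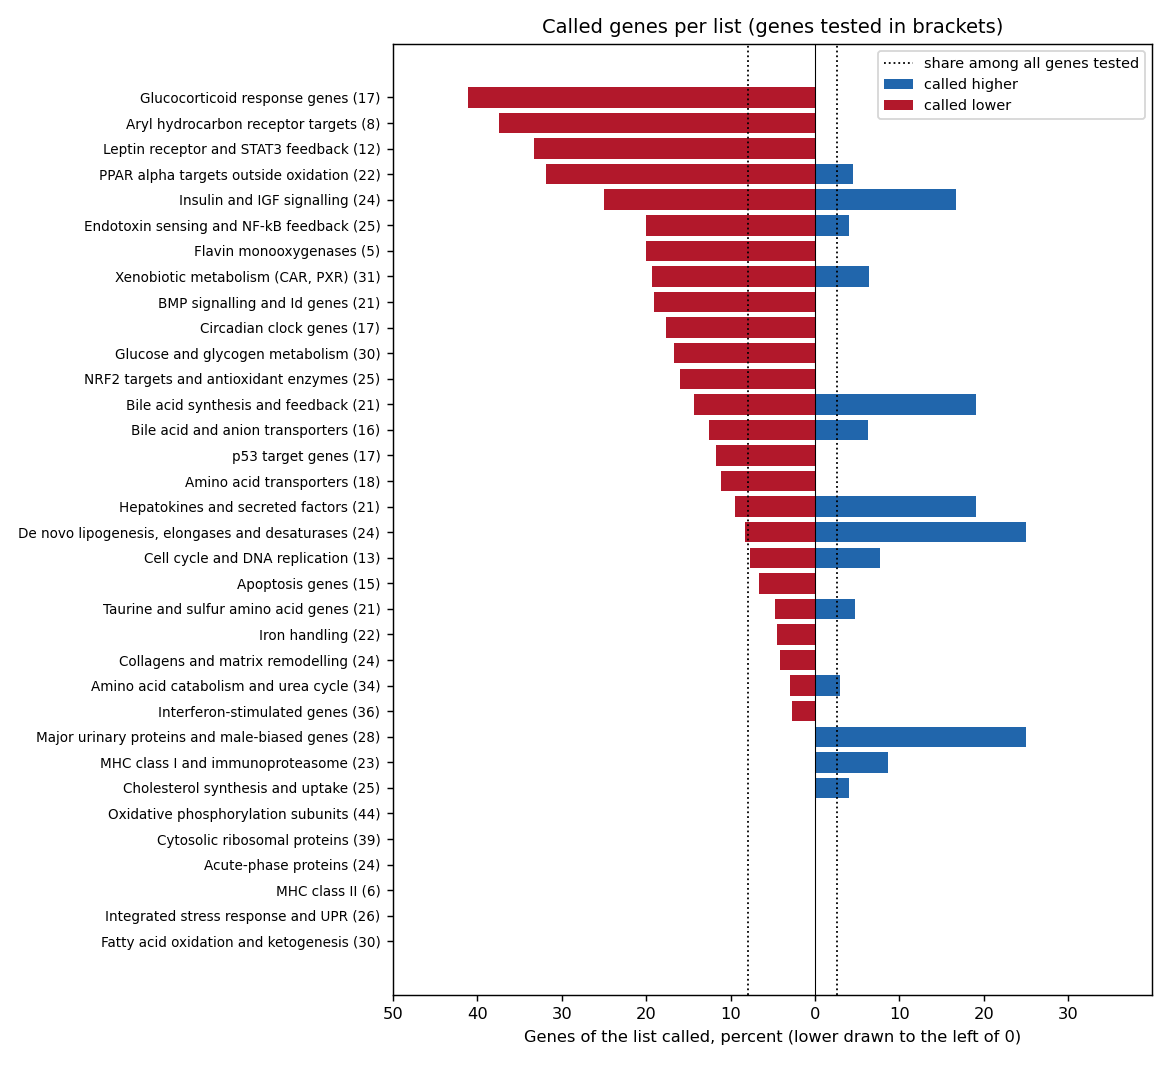
Share of the tested genes of each pathway list called higher (right, blue) or lower (left, red) with a transplant, with the number tested in brackets. Dotted lines mark the share among all tested genes, 2.62% higher and 7.95% lower, and glucocorticoid response genes have the longest bar to the left (7 of 17).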

How the data were processed

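Liver RNA of 18 mice was sequenced by the authors after poly(A) selection on an Illumina HiSeq instrument. The deposited values are RPKM per gene, which per the paper's methods the authors made from reads mapped with SOAPaligner, while the submitters' processing notes name Bowtie 0.12.2 and the mouse build mm10. How reads of close copies were counted is not given in the sources used here, and the deposited table holds no read totals. Groups came from the sample labels.

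Genes at 1 RPKM or more in 3 or more of the 12 libraries were kept, 1 was added and log2 was taken, so fold changes of low genes are understated. Limma 3.58.1 in R 4.3.3 fitted 4 group means (eBayes with trend), and the mean of both FMT groups was set against the mean of STZ and STZ+AOS. Benjamini-Hochberg adjusted p under 0.05 was a call. Exact two-sided permutation tests were run on single values per library. Other scalings, filters, pseudocounts and sample sets were tried.

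Named genes were the 12 rising and 12 falling called genes of largest change without overlap between the arms. Their higher arm averaged at least 5 RPKM. To these came up to 4 called genes of each pathway list and 7 genes of proteins the study measured in blood, spleen or liver. A further 5 genes came from an earlier account of these data (Lepr, Csad, Id1, Zbtb16, Cyp4a10). Another 33 genes were added after their values were seen: Sult2a1, Sult1e1, Cyp2a4, Cyp17a1, Car3, Ces3a, the globins and Alas2, Mup1, Mup3, Cyp4a12a, Igf1, Irs2, Insr, Socs2, Fkbp5, Nr3c1, Angptl4, Marco, Clec4f, Pck1, G6pc, Scd1, Fasn, Thrsp, Lpin1, Cyp7a1, Cyp8b1, Cyp2b10, Hamp and Cpt1a. Pck2, outside these rules and not among the 33, was also named after its values were seen. Ttr and Serpina1c were named as called hepatocyte markers. The members, the lists (34 pathway, 10 marker) and the rule were chosen with earlier results of these data known. Gene positions were looked up by symbol in GENCODE M21 (GRCm38), which held 18517 of the 19057. Of all symbols 26 look like dates and 6 rows repeat a symbol, and none of these was named. Some genes are not reported here.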

Additional observations from a re-analysis of the deposited data

Results flagged for a closer look

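In 270 groups of 6 values (each named gene in each arm, on the log2(RPKM + 1) scale, and single values per library), 27 had a highest or lowest mouse whose gap to its neighbour took a share of the whole range above Dixon's critical value, which is 10% where chance gives about 1 in 20. The share is given for each. STZ mouse 3 stood apart in its distance from the Con and AOS mean (0.841), high in Cyp7b1 (0.787) and low in Mt2 (0.725), Cyp4a10 (0.723), Steap2 (0.688) and Fmo2 (0.678). STZ+AOS mouse 3 was high in Smad4 (0.757), Txnip (0.713), Mdm2 (0.705), Irs2 (0.699), Klf9 (0.688) and Bcl2l1 (0.63). STZ+AOS mouse 1 was low in 3 sterol genes, Cyp8b1 (0.689), Cyp7a1 (0.671) and Sc5d (0.635). STZ mouse 1 was high in Cyp3a44 (0.757) and STZ mouse 2 low in Sod3 (0.647).

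Among transplanted livers, Con-FMT mouse 1 was low in Cyp4a12a (0.773) and Cyp7b1 (0.661) and high in Bcl2l1 (0.632) and Sult1e1 (0.629). Con-FMT mouse 2 was low in Enho (0.7) and Pck1 (0.667), and Con-FMT mouse 3 low in Fam25c (0.634). A10-FMT mouse 2 was high in Fitm1 (0.761) and Rgn (0.652), and A10-FMT mouse 1 low in Acot1 (0.634).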

How the results depend on the processing

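The pooled comparison called 1131 genes. It called 431 with no filter on low values, 2525 with all 6 groups in the fit, 0 without the STZ+AOS group, 0 without the A10-FMT group, 1 without the Con-FMT group, and 1 to 2217 with single mice left out. Against STZ alone, 0 genes became 1 with no filter, 318 with all 6 groups and 0 to 702 with single mice left out. Against STZ+AOS, 729 genes became 451 after median-ratio scaling, 368 after quantile normalization, 5 with no filter, 2227 with all 6 groups and 0 to 1248 with single mice left out. STZ+AOS against STZ gave 1 gene with no filter, and A10-FMT against Con-FMT gave 0. Both gave 0 in every fit that left out a mouse. The cause of these shifts was not tested. With mouse number as a replicate block the pooled comparison called 734 genes and that against STZ+AOS 38, but 8 of 18 same-numbered pairs of libraries correlated over 0.1 and 2 libraries correlated best with their own number, so the numbers were not taken as pairs in these comparisons. The 3 same-numbered pairs of A10-FMT and Con-FMT all correlated over 0.1 (0.123, 0.292 and 0.180), and that contrast had 0 called genes with the block as without it (165 and 154 at an unadjusted p under 0.05 in limma).

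Of 1709 values of named genes in alternatives other than leaving out 1 mouse, 1213 kept their direction and side of the threshold, 471 lost a call and 22 gained one. Directions reversed in 5 genes, none of them called. After median-ratio scaling Gpt moved to 0.0213 and Sod2 to 0.0335. Hamp moved to 0.117 without the STZ+AOS group. With single mice left out, Gpt ranged from -0.228 to 0.0606 (highest without STZ+AOS mouse 1), Sod2 from -0.144 to 0.0104 and Cpt1a from -0.249 to 0.0106 (both positive without STZ+AOS mouse 2 and without Con-FMT mouse 2), and Clec4f from -0.282 to 0.0345 (highest without A10-FMT mouse 2). Read depth is unknown, so the counting error of low genes is too.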

Other observations

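Further gene groups are given by their called genes, beside 7.95% lower and 2.62% higher among all tested genes. Without STZ mouse 3, 1620 of the 10698 tested genes were lower and 597 higher. Of 34 genes of amino acid catabolism and the urea cycle, Haao, an enzyme of tryptophan breakdown, rose by 0.53 and Got1, aspartate aminotransferase, fell by 0.70, and without STZ mouse 3 there were 4 lower and 1 higher. Of 18 amino acid transporters, Slc38a2 (-0.80), which carries neutral amino acids, and Slc16a10 (-0.76), which carries aromatic ones, fell without overlap between the arms. Of 17 p53 targets, Mdm2 (-0.48) and Zmat3 (-0.28) fell, with 4 lower without STZ mouse 3, and of 15 apoptosis genes Mcl1 (-0.70), a survival factor, fell without overlap. Limma called 0 of 26 genes of the integrated stress response (9 at an unadjusted p under 0.05), and without STZ mouse 3 called 3 higher and 1 lower. Of 22 iron genes, 1 fell (0 after median-ratio scaling, 2 without STZ mouse 3), the metalloreductase Steap2 at -0.39, and Hamp, the iron hormone hepcidin, stood at -0.26 (adjusted p = 0.577). Of 8 genes of the aryl hydrocarbon receptor list, 3 fell and 0 rose (2 fell after median-ratio scaling). Arnt, the partner of the receptor, fell by 0.52, Tiparp by 0.75 and Nqo1 by 0.87, and of 5 flavin monooxygenases Fmo2 fell by 1.70 (3 were lower without STZ mouse 3). Of 24 matrix genes, Ctgf, a fibrogenic growth factor, fell by 0.91 without overlap.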
